A study of Brassica rapa with 12 samples.

Results

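The difference between the silencing effect in buds and the silencing effect in stems was examined in Brassica rapa, the species of Chinese cabbage, pak choi and turnip. It was taken as the log2 ratio of silenced to wild type in bud minus the same log2 ratio in stem, from 1 model over all 12 of the 12 libraries of the series. The 4 groups were buds of BrCHR39-silenced lines, buds of wild type plants, stems of BrCHR39-silenced lines and stems of wild type plants, with 3 libraries each. All plants were 8 weeks old and grew in pots under long days. The labels give neither the number of silenced lines nor the silencing construct, and whether the 3 libraries within a group stand for 3 plants is not stated. Every p-value therefore rests on spread that may be technical only.

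The series title names BrCHR39 as a chromatin-remodelling ATPase with a role in apical dominance. Enzymes of this kind use ATP to slide, evict or exchange nucleosomes, which changes how easily transcription factors and polymerase reach a gene. Apical dominance is the hold of the growing shoot tip over the outgrowth of side buds, and it is carried in part by auxin that moves down the stem. A gene whose response to silencing differs between bud and stem is one for which the genotype and the tissue do not simply add up.

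The genes are listed by identifier, and 1 of the 41020 identifiers could be paired with a name, so pathways, cell type markers and BrCHR39 itself were not analysed here. Between 12275190 and 15693349 reads per library fell on genes, and 28114 genes had enough reads to be tested. Within groups, the log2 levels of libraries correlated at 0.990 to 0.992 across the tested genes. Their counts differed by 1.59 to 1.77 times the variance of counting alone, in genes with at least 200 reads in a pair of libraries. Silenced stems correlated better with wild type buds (0.702 to 0.704) than with silenced buds (0.693 to 0.695), and wild type stems better with silenced buds (0.676) than with wild type buds (0.651 to 0.653). Each stem group thus lay closer to the buds of the other genotype. Since BrCHR39 has no known identifier here, its level gives no check of the genotype names. If the genotype names of 1 tissue were crossed, the contrast examined would be the sum of both effects, which was called at 2-fold or more in 9872 genes, 35.1% of those tested. In whole organs, fewer cells of a type and less RNA per cell cannot be told apart.

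Most genes responded differently in the tissues, and with the genotype names as deposited the commonest form was a reversal. A difference between both effects was called for 20904 genes, 74.4% of those tested (edgeR's quasi-likelihood test, Benjamini-Hochberg adjusted p under 0.05, 12 libraries). It reached 2-fold in 13771 genes, 49.0%. Among these 13771 genes, 8780 had called effects of opposite sign in bud and stem, or 63.8%. Another 2328 had a called effect in bud alone and 1376 in stem alone, which does not by itself show that the other tissue lacked a response. Only 1242, or 9.02%, moved the same way in both tissues by unequal amounts, and 45 had neither effect called. The silencing effect was called in 79.8% of the genes in bud (41.3% lower, 38.5% higher) and in 69.7% in stem (32.1% lower, 37.6% higher), so calls in both tissues were common to begin with. Choosing genes by their difference favours opposite signs. Without that choice, 10517 of the 16020 genes with both effects called, or 65.6%, had opposite signs. With the genotype names of 1 tissue crossed, 34.4% of the same 16020 genes would have opposite signs, so this ranking rests on the names.

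A reversal was usually made of moderate effects in both tissues. Among the 8780 genes with opposite signs and a 2-fold difference, the median size of the effect was 1.09 in bud and 0.96 in stem on the log2 scale, and the bud effect was the larger in 58.3%. Where the effect was called in bud alone, its median size was 1.59, against 0.26 for the stem effect of the same genes. Where it was called in stem alone, the median size was 0.23 in bud and 1.76 in stem. The genes of unequal but same-signed response with a 2-fold difference had a median size of 1.79 in bud and 1.74 in stem. When differences of any size were counted, 1462 same-signed genes fell in both tissues and 1690 rose in both. The bud effect was the larger in 811 of those that fell and in 887 of those that rose, so neither tissue clearly had the larger response.

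Large differences leaned to the negative side, that is, to a lower silenced to wild type ratio in bud than in stem. At 2-fold or more, 7703 genes, 27.4% of those tested, were more negative in bud, and 6068, 21.6%, were more positive. At 8-fold or more the numbers were 2588 and 1220 genes, or 9.21% and 4.34%, together 13.5%. Differences of any size were nearly balanced, with 10922 genes more negative (38.8%) and 9982 more positive (35.5%) in bud. That near balance turned without silenced bud replicate 1 (10104 more negative and 10647 more positive) and without silenced bud replicate 3 (10136 and 10562). The lean at 2-fold or more was smaller without these libraries, at 51.6% and 51.7% more negative against 55.9% with all libraries. Without them the differences shifted in the positive direction, by 0.119 and 0.113 on the log2 scale. The scaling between libraries was computed anew in each such fit, and its part in the shift was not tested.

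The share of reversals changed with the read level of the gene. Genes were sorted by their mean level over the 4 groups, with equal weight for each tissue and genotype, so that the sorting favours neither direction. Levels are in CPM, reads scaled to the library total times its scaling factor in edgeR (TMM). These factors were 0.86 to 0.87 in stem libraries and 1.12 to 1.18 in bud libraries. Among genes called at 2-fold or more in both tissues, 458 of 937 had opposite signs in the class under 1 CPM, or 48.9%. The share was 794 of 1324 at 1 to 4 CPM, 70.4% at 4 to 16 CPM and 79.9% at 16 to 64 CPM. At 64 CPM and over it was 86.0%, 252 of 293 genes. In the most read genes a strong response in both tissues was thus mostly a reversal under the deposited names. With the names of 1 tissue crossed the shares turn, to 51.1% under 1 CPM and 41 of 293 genes at 64 CPM and over. Under 1 CPM the share of opposite signs was 37.3% when 10 reads in 3 libraries of each tissue were required. Over all genes called at 2-fold or more in both tissues, 64.9% had opposite signs. Calls at 2-fold or more made up 37.2% of the genes in bud and 28.8% in stem.

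**Figure D1:**
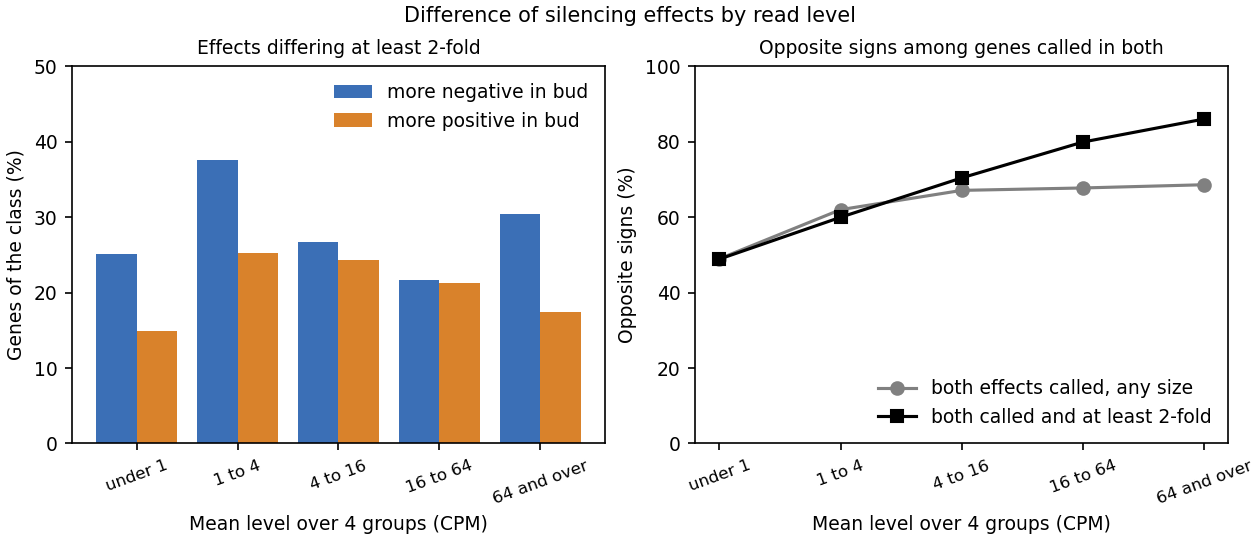
Left, share of the genes in each class of mean level (CPM over the 4 groups) whose silencing effects differed at least 2-fold between bud and stem, more negative in bud (blue) or more positive in bud (orange). Right, share with opposite signs among genes called in both tissues, at any size (grey circles) or at 2-fold or more in both (black squares), which runs from 48.9% under 1 CPM to 86.0% at 64 CPM and over.

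With calls of any size in both tissues the share of opposite signs was 49.0% under 1 CPM and 62.0% at 1 to 4 CPM. It then stayed between 67.1% and 68.6% in the 3 higher classes. The rank correlation of the bud effect with the stem effect across the genes of a class was -0.010 under 1 CPM (3957 genes). It was -0.153 at 1 to 4 CPM, -0.287 at 4 to 16 CPM, -0.374 at 16 to 64 CPM and -0.459 at 64 CPM and over (2837 genes). Both effects come from separate libraries that share only the scaling between libraries. Sampling noise differs along this series, and its part in the weaker correlation of the least read genes was not tested. The standard error of the difference, from the spread of log2 CPM within groups, had a median of 0.48 under 1 CPM and 0.05 at 64 CPM and over.

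**Figure D2:**
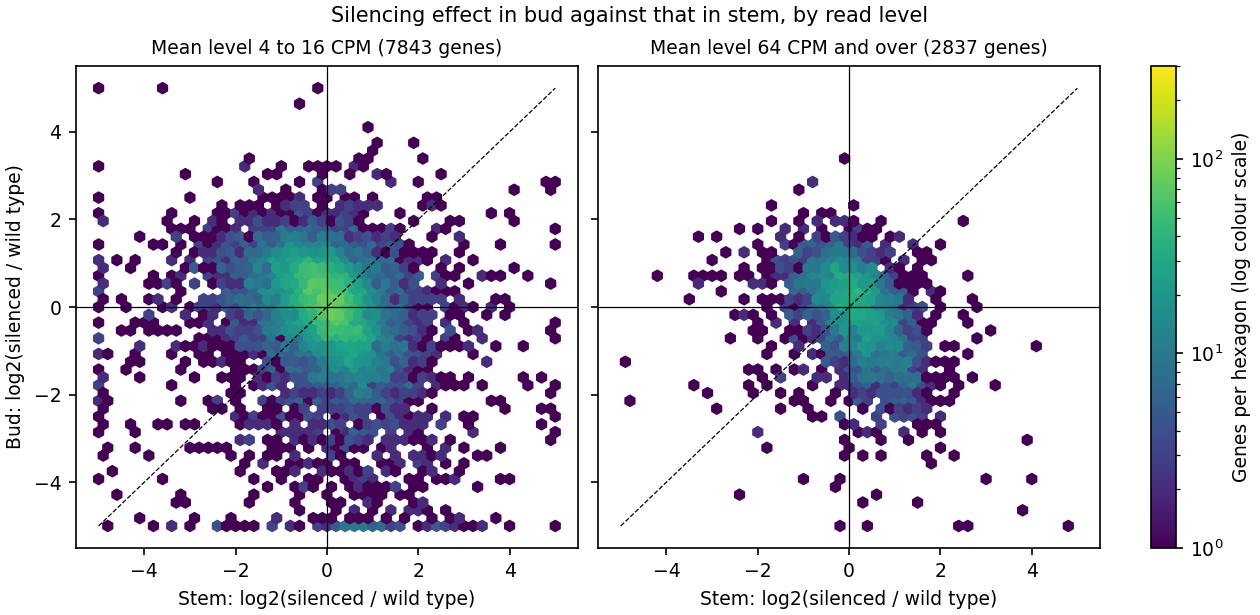
Silencing effect in bud (vertical axis) against silencing effect in stem (horizontal axis), both as log2 of silenced over wild type, for the 7843 genes at 4 to 16 CPM and the 2837 genes at 64 CPM and over; colour gives the number of genes per hexagon on a log scale, values beyond 5 are drawn at 5, and the dashed line marks equal effects. In the more read class the cloud leans from upper left to lower right, with a rank correlation of -0.459 against -0.287 at 4 to 16 CPM.

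CPM counts reads, and a long gene collects more of them than a short one at the same abundance. The levels were therefore also taken per length, as FPKM (fragments scaled to both coding length and library total). The share of opposite signs among genes called at 2-fold or more in both tissues was then 52.3% under 1 FPKM and 89.7% at 64 FPKM and over. The order of the 5 classes was the same as with CPM, with 58.3%, 68.4% and 75.2% in the classes between.

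The lean to the negative side stood at both ends of the level range and also at 1 to 4 CPM. Under 1 CPM, 995 genes differed by 2-fold or more on the negative side and 591 on the positive side, so 62.7% were more negative in bud. At 64 CPM and over the split was 862 and 494, or 63.6%. At 1 to 4 CPM it was 1965 and 1317, or 59.9%, and at 4 to 16 CPM 2091 and 1910, or 52.3%. Between 16 and 64 CPM it was 1790 and 1756, which is even. The share of genes that differed 2-fold or more was 40.1% under 1 CPM, highest at 1 to 4 CPM with 62.9%, and 51.0%, 43.0% and 47.8% in the 3 classes above, against 49.0% over all tested genes. In the lowest class 1676 of 3957 genes had no reads in at least 1 group. Many of them passed the filter on low counts through the group where they were highest, so the size and the lean of their differences are partly fixed by that filter.

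The median difference was -1.03 on the log2 scale under 1 CPM, -0.36 at 1 to 4 CPM, -0.02 at 4 to 16 CPM, 0.10 at 16 to 64 CPM and -0.19 at 64 CPM and over, against -0.10 over all tested genes. Medians this close to 0 moved with single libraries and with the scale. Without silenced bud replicate 1 they were 0.22 at 16 to 64 CPM, -0.073 at 64 CPM and over and 0.0039 over all genes. By FPKM level they were 0.015 at 16 to 64 FPKM and -0.47 at 64 FPKM and over. The effects in the tissues had medians of -0.03 in bud and 0.19 in stem at 64 CPM and over, and of -0.24 in bud and 0.23 in stem at 64 FPKM and over. The value of -1.03 under 1 CPM includes genes with groups at 0 reads, whose fitted folds are not bounds. With such groups set to 3 reads over their 3 libraries, and genes with 3 reads or fewer in both groups of a tissue left out, it was -0.66. In genes with at least 10 reads in 3 libraries of each tissue it was -0.37.

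By their medians, effects were larger in bud than in stem at each read level above 1 CPM. With genes sorted by their level in the same tissue, the median size of the effect on the log2 scale was 1.08 in bud and 0.85 in stem at 1 to 4 CPM, and 0.66 in bud and 0.56 in stem at 4 to 16 CPM. It was 0.57 in bud and 0.45 in stem at 16 to 64 CPM, and 0.66 in bud and 0.49 in stem at 64 CPM and over. The standard errors were close between the tissues, with medians of 0.06 in bud and 0.07 in stem at 16 to 64 CPM. Calls of 2-fold or more over all tested genes were 23.8% lower and 13.4% higher in silenced buds, and 14.3% lower and 14.4% higher in silenced stems. At 16 to 64 CPM in the same tissue these shares were 11.8% lower and 12.1% higher in bud, and 8.82% lower and 10.4% higher in stem. Each other class of bud level leaned to lower in bud. The shares there were 49.1% lower and 13.8% higher under 1 CPM, and 36.4% and 16.5% at 1 to 4 CPM. They were 18.5% and 13.4% at 4 to 16 CPM, and 17.5% and 11.6% at 64 CPM and over. In stem at 64 CPM and over they were 9.62% lower and 11.8% higher.

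The level in each tissue was then considered separately, each averaged over both genotypes. Genes with much more signal in stem than in bud were mostly more negative in bud. Of the 3092 genes at least 4 times higher in stem, 1257 had a difference of 2-fold or more that was more negative in bud and 589 one that was more positive, so 68.1% were more negative. Of the 3336 genes at least 4 times higher in bud the split was 826 and 724, or 53.3%. Where levels were within 2-fold of each other it was 3208 and 3172 among 13975 genes, or 50.3%. At 8-fold or more, genes with levels within 2-fold also leaned, with 849 more negative and 431 more positive in bud. The even split of these genes thus held at 2-fold and not at 8-fold. A separate set, not limited by the ratio of levels, is the 1846 genes at 64 CPM and over in both tissues. Their split at 2-fold or more was 529 more negative and 319 more positive in bud.

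At the extreme, 207 genes averaged 16 CPM and over in stem and under 1 CPM in bud. Their median difference was -1.33 on the log2 scale, with a median effect of -2.17 in bud and -0.69 in stem. Of the 127 that differed by 2-fold or more, 97 were more negative in bud. In the 159 genes with the reverse distribution, 16 CPM and over in bud and under 1 CPM in stem, the median was -0.38. Its sign changed without single libraries, between -0.37 and 0.29, and 42 of 89 genes were more negative in bud, so no direction is given for them. Where both tissues read 16 CPM and over, in 8799 genes, 42.9% differed by 2-fold or more and 84.0% of the 688 genes called at 2-fold or more in both tissues had opposite signs. Where both tissues read under 4 CPM, in 6781 genes, the share of opposite signs was 55.0% of 1696.

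**Figure D3:**
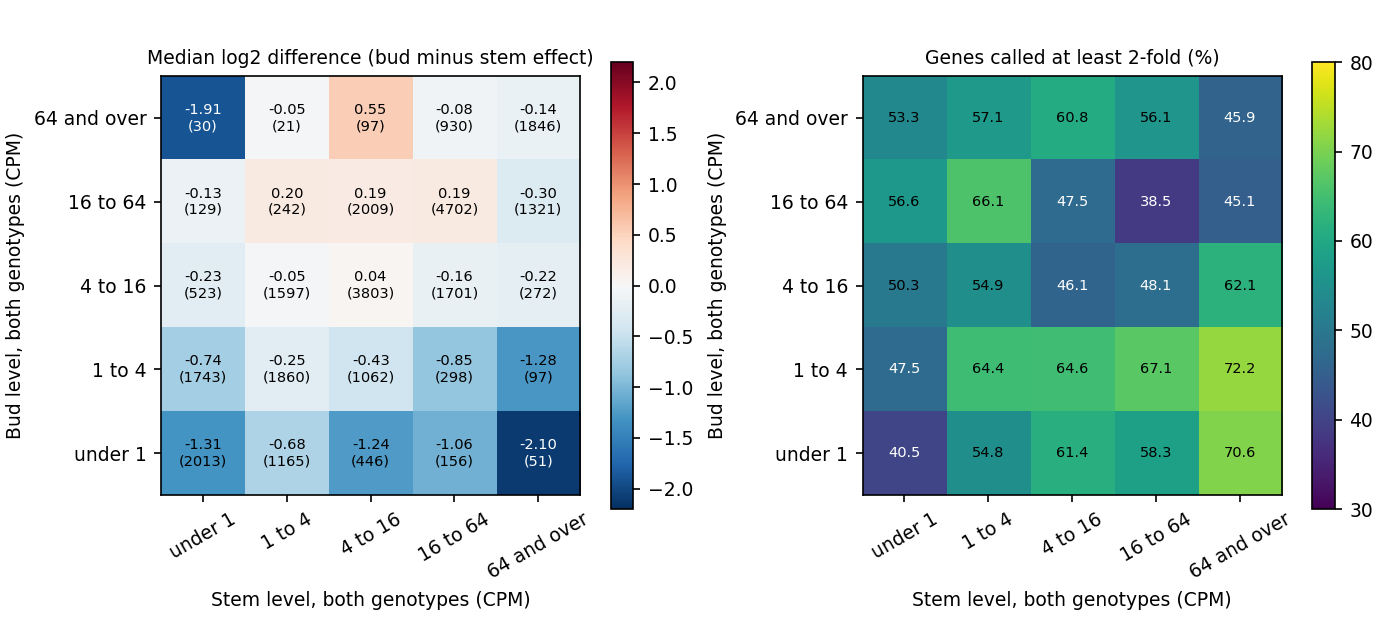
Genes sorted by stem level (horizontal) and bud level (vertical), each in CPM averaged over both genotypes. Left, median log2 difference of the effects, bud minus stem, with the number of genes in brackets; right, share of genes called at 2-fold or more. The lower right corner, high in stem and low in bud, holds the most negative median, -2.10 over 51 genes, and the cell at 16 to 64 CPM in both tissues holds the lowest share, 38.5% of 4702 genes.

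For genes read in a single tissue the contrast depends on how 0 reads are treated. No reads in any of the 6 stem libraries were found for 661 tested genes, and no reads in any of the 6 bud libraries for 111. In edgeR, 0 of these 661 and 0 of these 111 genes had a called difference, and 0 of either had an unadjusted p under 0.05. DESeq2 called 276 of the 661 and 41 of the 111, and limma on log2(FPKM + 1) called 484 of the 524 and 84 of the 93 that it tested. These genes passed the filter on low counts through the tissue with reads, so the size and lean of their effects there are partly fixed by it. In bud, 553 of the 661 were called at 2-fold or more, 464 of them lower and 89 higher. Over all tested genes the share in bud was 37.2%, with 23.8% lower and 13.4% higher. Of the 111 genes without bud reads, 89 were called at 2-fold or more in stem, 60 lower and 29 higher. Over all tested genes the share in stem was 28.8%, with 14.3% lower and 14.4% higher. In both sets, more genes were lower than higher in silenced plants, and the counts given for the contrast leave all of them out.

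The genes named are the most read, by mean level over the 12 libraries, among 4467 of the 28114 tested genes. These had a called difference of 4-fold or more, called effects of opposite sign and no overlap between silenced and wild type libraries in either tissue. Of these, 1621 were more positive and 2846 more negative in bud. Lack of overlap in the named genes follows from this choice, and its share over all tested genes is not given here. A called difference of 4-fold or more stood in 24.9% of the tested genes, more positive in 9.33% and more negative in 15.6%. Without names for the identifiers, only the top pair in each direction is given, and what they encode is not annotated in the sources used here. They show how the same kind of difference can arise from unlike group levels.

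By CPM, Bra013576, with a coding length of 996 bases, lost most of its tissue difference. It had 3113, 3046 and 3162 CPM in silenced buds, against 1286, 1324 and 1283 CPM in wild type buds. In stems it had 3012, 2989 and 2954 CPM in silenced plants, against 5376, 5375 and 5361 CPM in wild type plants. The groups did not overlap in either tissue, and silenced buds and silenced stems came to lie close together by CPM with TMM scaling. FPKM, scaled to library totals without TMM, was 3677 in silenced buds and 2587 in silenced stems. In wild type it was 1464 in buds and 4702 in stems. How close the silenced tissues lie thus depends on the scaling. The gene was 2.39-fold higher in silenced buds and fell by 0.85 on the log2 scale in silenced stems, a difference of 2.11 ± 0.02 on the log2 scale (SE, 12 libraries; edgeR's adjusted p = 3.51e-128). In silenced plants bud and stem differed by 1.04-fold, and in wild type plants the bud was 4.14-fold lower than the stem.

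Bra012238, of 1479 coding bases, kept its tissue difference in a weaker form. It had 1284, 1263 and 1271 CPM in silenced buds, against 200.4, 201 and 199.7 CPM in wild type buds. In stems it had 3308, 3290.2 and 3303 CPM in silenced plants, against 6839.8, 6746 and 6763 CPM in wild type plants. All silenced bud libraries were above all wild type ones, and all silenced stem libraries below. The gene was 6.35-fold higher in silenced buds and 2.06-fold lower in silenced stems, and the effects differed by 3.71 ± 0.01 on the log2 scale (SE, 12 libraries; edgeR's adjusted p = 5.88e-159). The bud lay 2.59-fold below the stem in silenced plants and 33.8-fold below it in wild type plants.

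Bra005099, of 357 coding bases, switched the tissue in which it was higher. It had 638, 651 and 668 CPM in silenced buds, against 2328, 2347 and 2316 CPM in wild type buds. In stems it had 994, 1013 and 1013 CPM in silenced plants, against 856, 861 and 829 CPM in wild type plants. The bud groups were far apart and the stem groups close together but without overlap. The gene was 3.57-fold lower in silenced buds and 1.19-fold higher in silenced stems, a difference of -2.08 ± 0.03 on the log2 scale (SE, 12 libraries; edgeR's adjusted p = 1.85e-118). The bud was 1.54-fold lower than the stem in silenced plants and 2.75-fold higher in wild type plants.

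By CPM, Bra032937, of 762 coding bases, gained most of its tissue difference. It had 366, 364 and 365 CPM in silenced buds, against 1148, 1135 and 1126 CPM in wild type buds. In stems it had 1842, 1832 and 1849 CPM in silenced plants, against 1177, 1182 and 1190.3 CPM in wild type plants. Wild type buds and stems were nearly equal by CPM with TMM scaling, and the silenced groups lay on opposite sides of them. FPKM, scaled to library totals without TMM, was 1676 in wild type buds and 1354 in wild type stems. In silenced plants it was 565 in buds and 2086 in stems. The gene was 3.11-fold lower in silenced buds and 1.56-fold higher in silenced stems, with a difference of -2.28 ± 0.01 on the log2 scale (SE, 12 libraries; edgeR's adjusted p = 2.33e-124). In silenced plants the bud was 5.04-fold lower than the stem, against 1.04-fold lower in wild type plants.

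**Figure D4:**
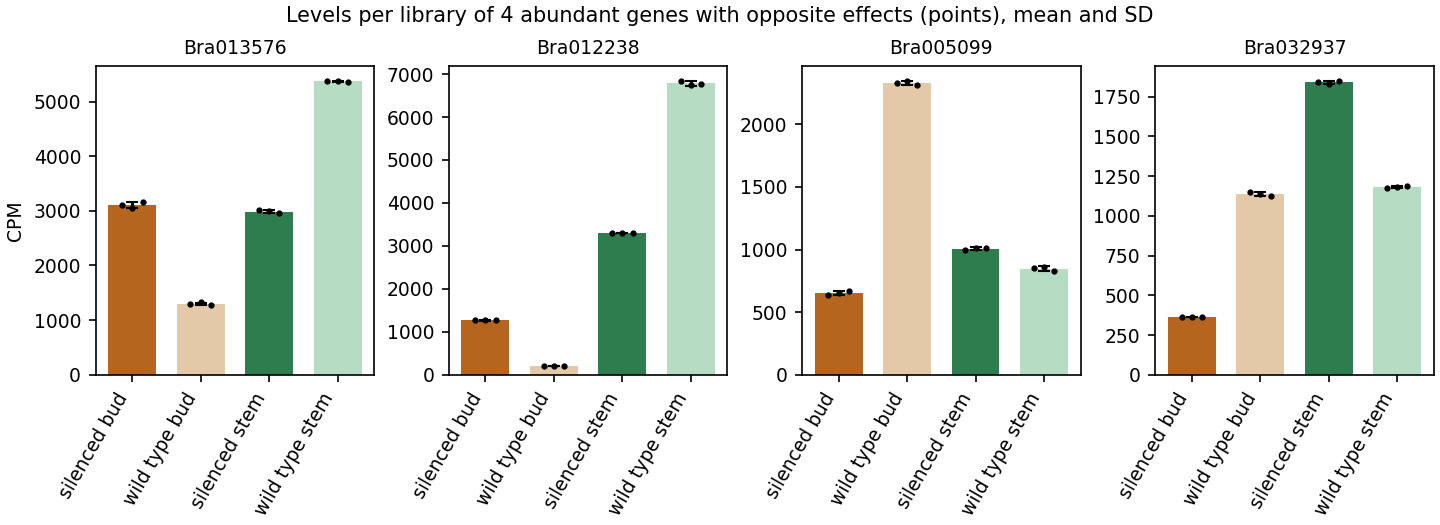
CPM per library (points) of the 4 named genes, with the mean (bar) and SD (whisker) of the 3 libraries of each group, in the order silenced bud, wild type bud, silenced stem and wild type stem; each panel has its own axis from 0. Bra013576 and Bra012238 are higher in silenced than in wild type buds and lower in silenced than in wild type stems, and Bra005099 and Bra032937 show the reverse.

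The same contrast can be read as the bud to stem difference of silenced plants set against that of wild type plants. About as many genes differed between the tissues with silencing as without it, but not all of them were shared. Bud and stem differed by 2-fold or more in 15498 genes of silenced plants, 55.1% of those tested, and in 15386 genes of wild type plants, 54.7%. Of all tested genes, 8409 passed in both genotypes in the same direction, 5529 passed in silenced plants only and 5417 in wild type plants only. These tissue contrasts share no library. Passing in a single genotype is not a test of the difference. It was called in 5160 of the 5529 genes and in 4594 of the 5417, or 93.3% and 84.8% against 74.4% over all tested genes. Sorting genes this way favours a called difference, since the difference is taken between the same tissue contrasts. The median size of the tissue difference over all genes was 1.20 in silenced plants and 1.17 in wild type plants on the log2 scale.

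In 1560 genes, 5.55% of those tested, bud and stem differed by 2-fold or more in both genotypes but in opposite directions. Of these, 511 were higher in bud in silenced plants and lower in bud in wild type plants, and 1049 were lower in bud in silenced plants and higher in bud in wild type plants. Over all tested genes, 27.7% were at least 2-fold higher and 27.4% lower in bud in silenced plants, against 30.8% higher and 24.0% lower in bud in wild type plants. Such genes made up 9.27% of the class under 1 CPM and 10.1% at 1 to 4 CPM. The share was 5.06% at 4 to 16 CPM, 2.60% at 16 to 64 CPM and 1.87% at 64 CPM and over. A full exchange of the tissues was thus rarer among well read genes. Same-direction 2-fold tissue differences in both genotypes were rarer too, 44.1% under 1 CPM and 22.2% at 64 CPM and over. Among genes called at 2-fold or more in both tissues, opposite silencing effects made up a larger share there with the names as deposited. Over all genes of the class, such opposite effects were 458 of 3957 under 1 CPM and 252 of 2837 at 64 CPM and over. Shares of genes with a 2-fold tissue difference in a single genotype rose with level for silenced plants and followed no order for wild type plants. They were 13.3% for silenced plants and 27.2% for wild type plants under 1 CPM, 17.8% and 18.2% at 1 to 4 CPM, and 19.9% and 17.9% at 4 to 16 CPM. At 16 to 64 CPM they were 22.6% and 16.8%, and at 64 CPM and over 23.0% and 21.2%.

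The direction of the difference varied with coding length in genes of 4 CPM and over. Over the genes of 16 CPM and over, the median difference was -0.60 on the log2 scale in the shortest of 5 equal length classes, with coding sequences of 609 bases or fewer. In the next classes it was -0.21, 0.05 and 0.08, and in the longest class, 1797 bases or more, it was 0.30. The bud effect had a median of -0.34 in the shortest class and 0.40 in the longest, and the stem effect 0.27 and 0.10. Short, well read genes were thus lower in silenced buds and higher in silenced stems by their medians, and long ones higher in silenced buds. At equal CPM a short gene has the higher FPKM, so length and level per length cannot be told apart in these classes. Genes of 64 FPKM and over also had medians of -0.24 in bud and 0.23 in stem. Of their differences of 2-fold or more, 70.1% were more negative in bud. Of the short genes of 16 CPM and over that differed by 2-fold or more, 72.0% were more negative in bud, against 38.5% of the long ones. At 4 to 16 CPM the medians ran the same way over a smaller range, -0.25 in the shortest class and 0.14 in the longest, with 61.6% and 45.5% more negative in bud.

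Genes under 4 CPM did not follow this order. Under 1 CPM the median was -0.75 in the shortest class and -1.20 in the longest, and at 1 to 4 CPM it was -0.31 and -0.44. At 64 CPM and over it was -0.76 and 0.11. The lengths are coding lengths without untranslated regions. How the libraries were made could affect short and long transcripts differently, and this was not tested.

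**Figure D5:**
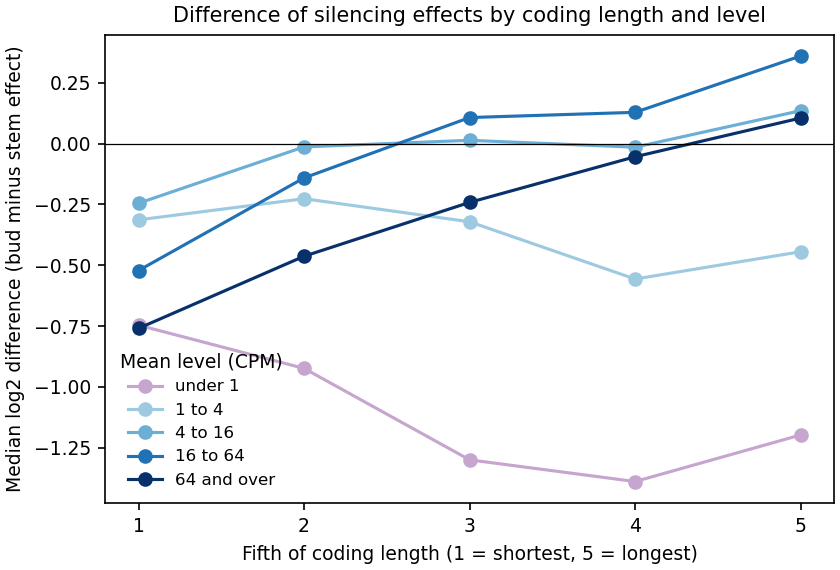
Median log2 difference of the silencing effects, bud minus stem, by class of coding length (1 shortest, 5 longest, with equal numbers of tested genes), with 1 line for each class of mean level in CPM. The lines at 16 to 64 CPM and at 64 CPM and over climb from -0.52 to 0.36 and from -0.76 to 0.11, and the line under 1 CPM does not climb.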

How the data were processed

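The deposited count table holds raw counts of reads per gene for 41020 genes in 12 libraries, and the authors' FPKM table holds 36230 of them. Per the submitters' processing notes, featureCounts 2.0.1, TopHat2, Bowtie 1.0.1 and HISAT2 2.1.0 were used, without roles; no genome build or annotation is stated in those sources. Counts, library totals and FPKM gave whole coding lengths for all 35651 genes with reads, within a relative tolerance of 1e-05. Whether strand was kept is not stated, so reads of overlapping genes may be shared, as may reads of near-identical copies.

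Counts were fitted in edgeR 4.0.16 (R 4.3.3) with TMM scaling and 1 term per group. The filter filterByExpr, with a minimum count of 10, left 28114 genes. The common biological coefficient of variation was 2.89%. Tests were quasi-likelihood, two-sided, with Benjamini-Hochberg adjustment over all tested genes and a threshold of 0.05. Levels are means of log2 CPM with TMM scaling and a prior count of 2. By library totals without TMM scaling, 0 reads in a library allow up to 0.191 to 0.244 CPM (3 reads, counting error only). Standard errors pool the variance of log2 CPM within groups. Level and length classes, and counts over them, are descriptions without a test, since genes are not replicates. DESeq2 1.42.0 and limma 3.58.1 on log2(FPKM + 1) were alternatives. The script was tested on simulated data. Contrast, classes and lists were chosen with earlier results of these data known. At most 2 genes per direction were named, as the identifiers carry no names: the most read with a 4-fold difference, opposite called effects and no overlap.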

Additional observations from a re-analysis of the deposited data

Results flagged for a closer look

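Bud and stem differed in their silencing effect in 20904 genes by the test of the difference itself (edgeR's quasi-likelihood test, adjusted p under 0.05, 12 libraries). The 4 named genes were chosen for a called difference of 4-fold or more, opposite effects and no overlap of libraries, so their values describe that choice. The difference, bud effect minus stem effect, was 2.11 on the log2 scale for Bra013576, 3.71 for Bra012238, -2.08 for Bra005099 and -2.28 for Bra032937. Groups of 3 libraries were too small for a check for single libraries that stand apart.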

How the results depend on the processing

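Most counts stayed within the wide limits set for them, and many medians by level moved by more than their spread between replicates. Of 319 counts and shares of genes under alternatives, 316 stayed close to the reported one, within 1.5 times for counts and within the exact binomial interval for shares. That interval takes genes as independent, which they are not, so it served only as a limit of closeness. A split of directions can turn while both counts stay within 1.5 times. The one count outside was genes with a bud effect alone, 4419 as reported and 7289 with limma on log2(FPKM + 1) without a filter. The called differences numbered 15437 in a test against 1.5-fold, 20760 in DESeq2, and 20573 to 20756 with a library left out. More genes were more negative than more positive in bud at 2-fold or more in every setting run, between 51.6% and 56.0% of the calls. At any size the split turned with library totals alone (10399 and 10539) and with limma on log2(FPKM + 1) (10989 and 11149). Leaving out silenced bud replicate 1 or 3, with the scaling computed anew, shifted the differences by 0.12 and 0.11 on the log2 scale.

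Median log2 differences moved by more than their spread between replicates as follows. DESeq2 size factors gave -1.02 under 1 CPM, 0.12 at 16 to 64 CPM and -0.17 at 64 CPM and over. Upper-quartile scaling gave -1.02, 0.12 and -0.17, and library totals alone -1.002, 0.18 and -0.10. Requiring 10 reads in 3 libraries of each tissue gave -0.37, 0.076 and -0.22, levels from FPKM gave -1.08, 0.015 and -0.47, and 5 equal classes of genes gave -0.86, 0.12 and -0.061. A prior count of 0.5 gave -0.96 under 1 CPM. With a library left out the ranges were -1.13 to -0.86, 0.091 to 0.22 and -0.20 to -0.073. For genes of 16 CPM and over in stem and under 1 CPM in bud, requiring 10 reads gave -2.75, the prior count -1.51 and FPKM levels -1.48, with -1.48 to -1.22 without a library. For the reverse distribution these were 1.59, 0.043 and -0.77, equal classes gave 0.095, and leaving out a library -0.37 to 0.29. The causes were not tested.

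The following alternatives were chosen after seeing the data. The share of opposite signs under 1 CPM was 37.3% when 10 reads in each tissue were required and 52.3% by FPKM level; without a library it was 46.3% to 47.9%, and 84.7% to 86.9% at 64 CPM and over. In the shortest class of coding length at 16 CPM and over the median was -0.58 with DESeq2 size factors, -0.58 with the upper quartile, -0.52 with library totals and -0.60 to -0.46 without a library. In the longest class it was 0.32, 0.32, 0.38 and 0.29 to 0.42, and 0.28 when 10 reads were required.

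With the replicate number as a block 20797 genes were called. The numbers share no known source: deviations of same-numbered libraries correlated at -0.020 to 0.026, and 3 of 12 libraries correlated best with their own number.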

Other observations

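Genes read in a single group were found mainly in wild type plants. With at least 100 reads over the 3 libraries of 1 group and at most 3 in each of the others, 5 genes were read in silenced buds alone, 131 in wild type buds alone, 8 in silenced stems alone and 21 in wild type stems alone. The opposite pattern, at most 3 reads in 1 group and at least 100 in each of the others, was found for 25 genes missing in silenced buds, 3 in wild type buds, 20 in silenced stems and 5 in wild type stems. These limits of reads were chosen with the results known, and the counts carry no test.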
